A study of Mus musculus with 6 samples.

Results

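The genes described here are 10 members of the *Serpina* cluster of mouse chromosome 12, which codes for proteins that hepatocytes secrete into plasma. They are the alpha-1-antitrypsin copies *Serpina1a*, *Serpina1b*, *Serpina1c*, *Serpina1d* and *Serpina1e*, the antichymotrypsin-related genes *Serpina3k*, *Serpina3m* and *Serpina3n*, the pseudogene *Serpina4-ps1*, and *Serpina6*, which codes for corticosteroid-binding globulin. They were found by symbol and are 10 of the 45777 genes in the table, and all 10 passed the filter on low counts, as did 18636 genes in all. They were chosen from their measured difference between the genotypes, so that difference is given below as a description and without a p-value. Liver RNA came from 2 genotypes of 3 mice each, namely *Pak4* flox/flox littermates (WT) and mice that carry Alb-Cre as well (LKO). All were on the C57BL/6 background, 8 weeks old and fasted for 24 h, and the paper states that they were male. The LKO mice carry Cre under the albumin promoter, which is active in hepatocytes, while the flox alleles are shared by both groups and the WT mice have no Cre. *Pak4* codes for a serine/threonine kinase.

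Serpins are protease inhibitors that work as bait. An exposed strand, the reactive-centre loop, is offered to a protease, and when the protease cuts it the serpin snaps into a new fold and traps the enzyme. Mice carry several copies of the alpha-1-antitrypsin gene where humans carry a single gene, and the copies are known to differ in that loop. Some members have lost the inhibitory role: corticosteroid-binding globulin carries glucocorticoids in plasma. The liver makes most plasma serpins, and several of them are acute-phase proteins.

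The cluster was read from the RefSeq annotation of GRCm38.p6. From *Serpina6* (chr12:103646630-103657218) to *Serpina3n* (chr12:104406646-104414334) it spans 768 kb and holds 31 genes of the table. Of these, 25 are *Serpina* genes, and 20 of the 25 were tested. The *Serpina1* copies lie on the minus strand, from *Serpina1b* (chr12:103728156-103738189) to *Serpina1e* (chr12:103946931-103956897). *Serpina4-ps1* (chr12:104077959-104086920) lies between them and the *Serpina3* genes, and *Serpina3k* is at chr12:104338486-104345739.

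The loop decides which protease a serpin can trap, so its coding sequence is shown for 8 members. Each line gives 60 bases (20 codons) of coding exon from the GENCODE vM21 transcripts on GRCm38, 5′ to 3′, starting at the hinge of the loop. Codon 15 of the stretch codes for P1, the residue just before the bond that the protease cuts. In the *Serpina1* copies the capitals mark every base that differs among the 5 copies.
Serpina1a: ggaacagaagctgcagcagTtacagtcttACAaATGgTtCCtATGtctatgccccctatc
Serpina1b: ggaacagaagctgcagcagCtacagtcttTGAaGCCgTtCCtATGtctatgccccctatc
Serpina1c: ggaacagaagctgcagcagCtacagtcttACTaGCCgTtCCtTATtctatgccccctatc
Serpina1d: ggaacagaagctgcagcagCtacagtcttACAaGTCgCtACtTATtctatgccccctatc
Serpina1e: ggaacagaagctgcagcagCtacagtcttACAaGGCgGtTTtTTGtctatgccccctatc

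The 5 copies differed at 13 of these 60 bases, in 7 codons, of which 6 precede P1 and 1 is P1 itself. *Serpina1a* and *Serpina1b* share a P1 codon, *Serpina1c* and *Serpina1d* share another, and *Serpina1e* has its own. Over the whole coding sequence the copies were 96.3 to 98.5% identical. In the *Serpina3* genes, shown because *Serpina3k* is the member of highest level, the capitals mark the P1 codon, which *Serpina3k* and *Serpina3m* share.
Serpina3k: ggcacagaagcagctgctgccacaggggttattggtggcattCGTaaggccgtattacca
Serpina3m: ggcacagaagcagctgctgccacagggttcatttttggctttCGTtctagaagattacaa
Serpina3n: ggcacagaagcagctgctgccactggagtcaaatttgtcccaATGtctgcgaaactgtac

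The coding sequences of *Serpina3k* and *Serpina3m* were 91.1% identical, those of *Serpina3k* and *Serpina3n* 82.7%. This likeness bears on the counts, because a read that matches several copies can be split among them. Of all windows of 100 bases, the read length, only 30.7% of those in *Serpina1c* and 57.2% of those in *Serpina1a* were found in no other gene, against 70.7% in *Serpina1d*, 85.2% in *Serpina1b* and 85.6% in *Serpina1e*. The share was 95.1% in *Serpina3k*, 93.9% in *Serpina3m*, 99.8% in *Serpina3n* and 100% in *Serpina4-ps1* and *Serpina6*. The values of single *Serpina1* copies, above all *Serpina1c* and *Serpina1a*, are therefore uncertain, and their sum is given beside them. Each *Serpina1* copy also shares windows with the pseudogene *Gm8893*, and *Serpina1a*, *Serpina1c* and *Serpina1d* share some with *B430119L08Rik*. Neither of these is in the sum.

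The promoters of the 5 *Serpina1* copies also share a stretch. RefSeq promoter windows (250 bases before to 50 after the start, GRCm38.p6) were matched for 6 members, the *Serpina1* copies and *Serpina3n*. The longest run common to all 5 *Serpina1* copies in the 250 bases before the start had 55 bases. It was found in the windows of no other gene. In *Serpina1d* it ends at the start itself, so whether it runs on past the start was not searched. It is shown for *Serpina1b*, where it lies at chr12:103738200-103738254 on the minus strand and ends 10 bases before the start, with the letters GTTAAT, part of the HNF1 motif, in capitals.
Serpina1 promoters: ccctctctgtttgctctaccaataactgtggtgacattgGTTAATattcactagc

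In a search of both strands, GTTAAT had 1 match in each of the 5 *Serpina1* windows and none in that of *Serpina3n*. It was found in 7.1% of all 32851 windows. The C/EBP letters TTGCNNAA were found in *Serpina1a*, *Serpina1b*, *Serpina1d* and *Serpina1e* and in 10.8% of all windows. Neither the STAT letters TTCNNNGAA (8.3% of all windows) nor the FOXA letters TGTTTAC (3.65%) were found in any of the 6 windows. A match of letters is a description and not a binding site.

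The WT libraries held 45934632 to 55205564 counts and the LKO libraries 53936281 to 59576437. *Pak4* had 268, 210 and 271 counts in the WT mice against 85, 52 and 149 in LKO. Its log2 fold change was −0.71 ± 0.31 (SE, adjusted p = 0.10, edgeR quasi-likelihood test with Benjamini-Hochberg adjustment). Leaving out 1 mouse gave −0.49 (adjusted p = 0.25, without LKO mouse 2) to −1.08 (adjusted p = 0.015, without LKO mouse 3), and it passed on total counts (−1.54, adjusted p = 0.0056) and on log2(TPM + 1) (−1.19, adjusted p = 0.00063). All 12 hepatocyte markers were detected in each mouse, the lowest value being 22.9 TPM (*Cyp2f2*). On TMM-scaled counts 7 rose and 3 fell (19.6% and 20.5% of all genes tested), with a median log2 fold change of 1.03. On total counts 4 rose and 3 fell (median 0.19), and on log2(TPM + 1) none rose and 5 fell (median −0.50). Over all 18636 genes tested, 1167 rose and 9575 fell on total counts, and 453 rose and 13322 fell on log2(TPM + 1). The TMM factors, which scale libraries to a common majority of genes, ranged from 1.28 to 1.43 in WT and from 0.639 to 0.816 in LKO and did not overlap. The scale therefore matters for every level below. The median log2 fold change of all genes tested was −0.04 on TMM-scaled counts, −0.90 on total counts and −0.79 on log2(TPM + 1). Adding 1 draws genes of low TPM toward 0, so the last median is not like for like with genes of high level. In bulk tissue, fewer cells of a type and less RNA per cell cannot be told apart. Nothing in the labels says more of the replicates than that they are separate mice.

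*Serpina3k*, whose product binds kallikrein, was the member of highest level and was higher in LKO livers on each scale. It had 7691, 8077 and 7929 TPM (transcript abundance scaled per length) in WT and 17418, 20594 and 18754 TPM in LKO. The groups did not overlap, and the WT mice lay within a coefficient of variation of 2.46%. Its rank by mean TPM was 13 among all genes in WT and 5 in LKO. In reads, *Serpina3k* took 0.897 ± 0.0174% of all counts in WT and 3.45 ± 0.454% in LKO livers (SD, n = 3). The log2 fold change was 2.83 ± 0.37 (SE) on TMM-scaled counts, 1.94 on total counts and 1.26 on log2(TPM + 1).

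*Serpina3m* went with its near copy. It had 378, 396 and 335 TPM in WT and 854, 1179 and 1017 TPM in LKO, again without overlap. Its log2 fold change was 3.05 ± 0.28 (SE) on TMM-scaled counts, 2.15 on total counts and 1.45 on log2(TPM + 1). The ratio of *Serpina3k* to *Serpina3m* within a mouse was 21.5 ± 1.91 in WT and 18.8 ± 1.48 in LKO livers (SD, n = 3), and these groups overlapped.

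*Serpina3n*, an acute-phase inhibitor of granzyme B and leukocyte elastase, depended on the scale. It had 137, 209 and 141 TPM in WT and 123, 224 and 217 TPM in LKO, so the groups overlapped. In TMM-scaled counts they did not overlap, at 171 ± 32.1 CPM (counts scaled per library) in WT and 603 ± 254 CPM in LKO livers (SD, n = 3). The log2 fold change was 1.81 ± 0.32 (SE) on that scale, 0.89 on total counts and 0.19 on log2(TPM + 1).

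**Figure D1:**
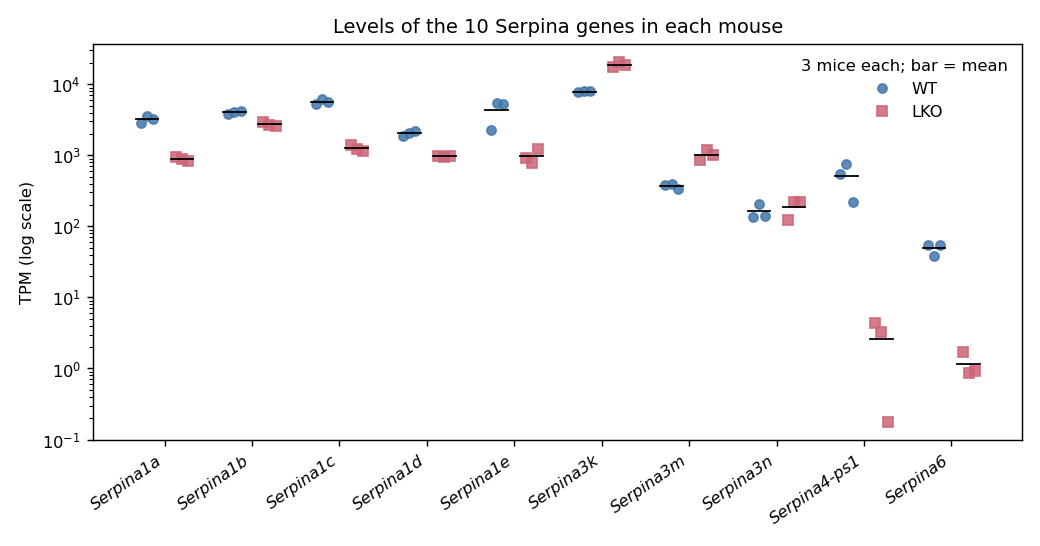
Level of each of the 10 genes in TPM on a log axis, for 3 WT mice (circles) and 3 LKO mice (squares), with a bar at each mean. *Serpina3k* lies highest in every mouse, and *Serpina4-ps1* and *Serpina6* are the genes with the widest gap between the groups.

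The alpha-1-antitrypsin copies, whose product in humans is the main inhibitor of neutrophil elastase, were each lower in LKO livers when given as TPM. *Serpina1a* had 2890, 3546 and 3195 TPM in WT and 957, 874 and 841 TPM in LKO. *Serpina1c*, the highest copy in WT, had 5344, 6125 and 5651 TPM in WT and 1384, 1215 and 1148 TPM in LKO. *Serpina1b* had 3769, 4128 and 4182 TPM in WT and 2907, 2711 and 2547 TPM in LKO. In none of these copies did the groups overlap in TPM, and *Serpina1b* lay closest.

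*Serpina1d* had 1867, 2074 and 2169 TPM in WT and 983, 953 and 982 TPM in LKO. *Serpina1e* had 2249, 5389 and 5250 TPM in WT and 917, 775 and 1232 TPM in LKO. WT mouse 1 was thus far below the other WT mice in *Serpina1e*, though above each LKO mouse.

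On TMM-scaled counts the copies parted. The log2 fold change was 1.00 ± 0.25 (SE) for *Serpina1b*, but 0.12 on total counts and −0.57 on log2(TPM + 1). For *Serpina1d* it was 0.49 ± 0.22 on TMM-scaled counts, but −0.39 on total counts and −1.06 on log2(TPM + 1). The other copies had values below 0 on each scale, though *Serpina1a* and *Serpina1e* overlapped between the groups on TMM-scaled counts, with values there of −0.29 ± 0.23 for *Serpina1a*, −0.63 ± 0.24 for *Serpina1c* and −0.61 ± 0.34 for *Serpina1e* (−0.91 without WT mouse 1). The 5 copies summed gave 0.05 ± 0.30 on TMM-scaled counts, −0.83 on total counts and −1.49 on log2(TPM + 1). On TMM-scaled counts the groups overlapped in the sum (14369 ± 2045 CPM in WT, 14869 ± 2325 CPM in LKO, SD, n = 3). Total alpha-1-antitrypsin mRNA was thus lower in LKO on total counts and in TPM, without a clear direction on TMM-scaled counts.

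**Figure D2:**
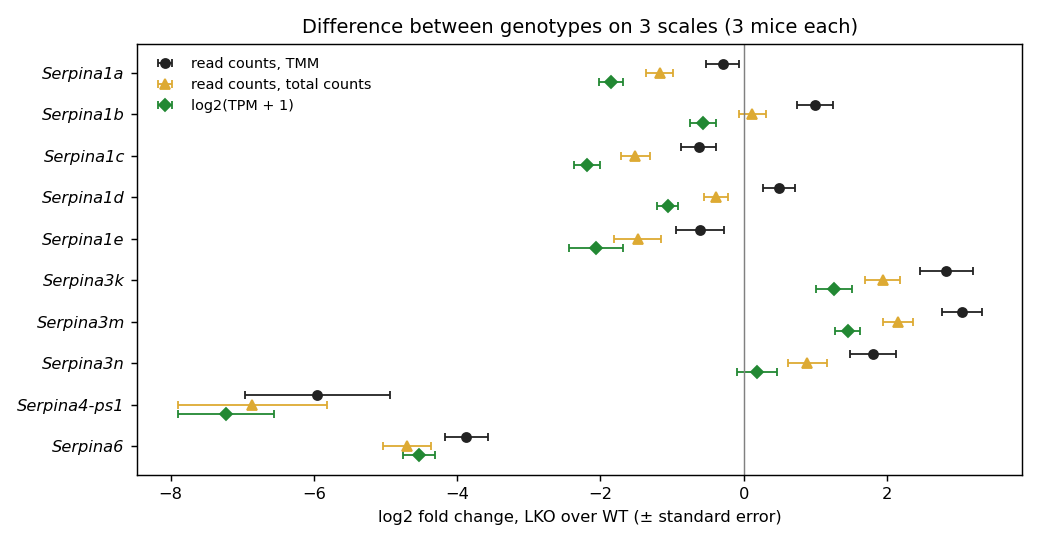
Log2 fold change (LKO over WT, ± SE, 3 mice each) of the 10 genes on TMM-scaled counts (circles), total counts (triangles) and log2(TPM + 1) (diamonds). *Serpina3k* and *Serpina3m* lie above 0 and *Serpina4-ps1* and *Serpina6* below 0 on each scale, whereas *Serpina1b* and *Serpina1d* lie on both sides.

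Ratios within a mouse do not depend on how libraries are scaled, and in them the make-up of the *Serpina1* mRNA differed. *Serpina1b* made up 23.4, 19.4 and 20.5% of the summed TPM of the 5 copies in WT and 40.7, 41.5 and 37.7% in LKO. *Serpina1c* made up 33.2, 28.8 and 27.6% in WT and 19.4, 18.6 and 17.0% in LKO. The leading copy was thus *Serpina1c* in each WT mouse and *Serpina1b* in each LKO mouse.

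The ratio of *Serpina1b* to *Serpina1c* was 0.706 ± 0.033 in WT and 2.18 ± 0.0723 in LKO livers (SD, n = 3). The share of *Serpina1d* was 10.7 ± 0.926% in WT and 14.3 ± 0.462% in LKO, and that of *Serpina1a* 16.7 ± 1.15% and 13.1 ± 0.52%, without overlap in either. The share of *Serpina1e* was 21.7 ± 6.64% in WT and 14.3 ± 3.46% in LKO, with overlap. *Serpina1b* and *Serpina1c* carry different P1 codons in the sequences above. These shares rest on how reads were divided among the copies, and *Serpina1c* has the fewest windows of its own.

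**Figure D3:**
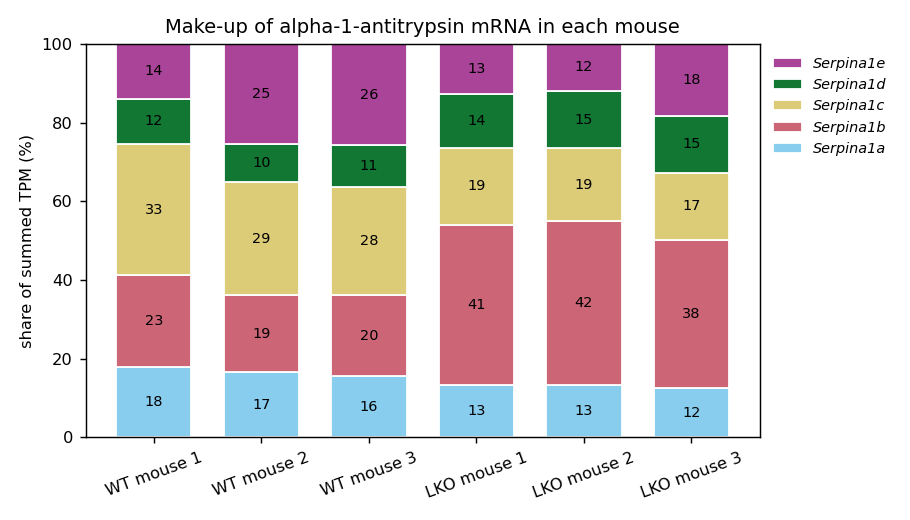
Share of each *Serpina1* copy in the summed TPM of the 5 copies (%), with 1 bar per mouse. *Serpina1b* takes 19.4 to 23.4% in WT and 37.7 to 41.5% in LKO.

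The balance between *Serpina3k* and the *Serpina1* copies also moved. *Serpina3k* stood at 0.477, 0.380 and 0.388 times the summed *Serpina1* TPM in WT and at 2.44, 3.15 and 2.78 times in LKO. Against albumin (*Alb*), the main plasma protein of the liver, *Serpina3k* stood at 0.397 ± 0.0538 in WT and 0.887 ± 0.356 in LKO livers, and the *Serpina1* sum at 0.974 ± 0.231 and 0.311 ± 0.085 (SD, n = 3). Neither ratio to *Alb* overlapped between the groups. The 10 genes together took 2.96 ± 0.278% of all counts in WT and 4.77 ± 0.522% in LKO livers.

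**Figure D4:**
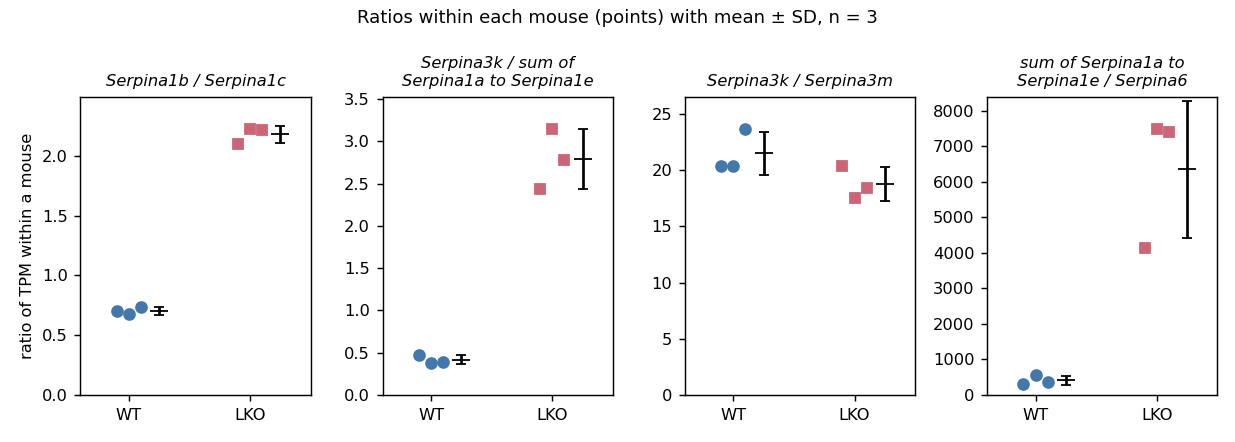
Ratio of TPM within each mouse (points) with mean ± SD (n = 3) for *Serpina1b* to *Serpina1c*, *Serpina3k* to the *Serpina1* sum, *Serpina3k* to *Serpina3m*, and the *Serpina1* sum to *Serpina6*. The groups are apart in each panel but that of *Serpina3k* to *Serpina3m*, where the means are 21.5 and 18.8.

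*Serpina6*, the gene of corticosteroid-binding globulin, was lower in LKO livers on each scale. It had 3342, 1904 and 3161 counts in WT and 168, 90 and 90 counts in LKO. In TPM this was 54.4, 37.9 and 54.8 in WT and 1.73, 0.871 and 0.911 in LKO, without overlap. The log2 fold change was −3.87 ± 0.30 (SE) on TMM-scaled counts, −4.70 on total counts and −4.53 on log2(TPM + 1).

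*Serpina4-ps1*, a transcribed pseudogene related to kallistatin, had the lowest log2 fold change of the 10. It had 28407, 31730 and 10603 counts in WT and 359, 286 and 15 counts in LKO, or 551, 753 and 219 TPM against 4.41, 3.31 and 0.174 TPM. The groups did not overlap, but WT mouse 3 and LKO mouse 3 lay well below the others of their groups. The log2 fold change was −5.95 ± 1.01 (SE) on TMM-scaled counts, −6.86 on total counts and −7.22 on log2(TPM + 1), and on TMM-scaled counts −6.29 without WT mouse 3 and −5.39 without LKO mouse 3.

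Counted over the 10 genes, 6 passed an adjusted p of 0.05 on TMM-scaled counts, where 40.1% of all genes tested did so. Of the 6, *Serpina1b*, *Serpina3k*, *Serpina3m* and *Serpina3n* were higher (19.6% of all genes) and *Serpina4-ps1* and *Serpina6* lower (20.5% of all genes). The balance turned with the scale, with 3 higher and 5 lower on total counts and 2 higher and 7 lower on log2(TPM + 1). Of all 18636 genes tested, 1167 passed as higher and 9575 as lower on total counts, against 453 and 13322 on log2(TPM + 1). Without overlap on all 3 scales, *Serpina3k* and *Serpina3m* were higher (2.94% of all genes) and *Serpina1c*, *Serpina4-ps1* and *Serpina6* lower (27.9% of all genes). Since these values chose the genes, the counts are a description. *Serpina1b* left the 6 without WT mouse 1, while *Serpina1e* joined them without that mouse. *Serpina1c* joined them under several settings, among them edgeR's exactTest, DESeq2, either other filter on low counts and leaving out LKO mouse 2, and *Serpina1d* did with DESeq2. The median log2 fold change of the 10 was 0.10 on TMM-scaled counts, but −0.78 on total counts and −1.45 on log2(TPM + 1).

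The other clade A serpins, to which the 10 belong, were mostly lower where they passed the test. Of 18 such genes 13 were tested, 2 rose and 6 fell on TMM-scaled counts, and their median log2 fold change was −0.45. On total counts 1 rose and 8 fell, and on log2(TPM + 1) 1 rose and 9 fell. The values to set beside this and the next lists are those of all 18636 genes tested on the same scale. On TMM-scaled counts 19.6% rose and 20.5% fell, with a median of −0.04. On total counts 1167 genes rose and 9575 fell (median −0.90), and on log2(TPM + 1) 453 rose and 13322 fell (median −0.79). The last median is not like for like with lists of higher level, because adding 1 draws genes of low TPM toward 0. *Serpina9*, for one, was at −1.36 on log2(TPM + 1) and at −3.62 on log2(TPM + 0.1). *Serpina12*, the adipokine vaspin, fell by 2.54 on the log2 scale (SE 0.37, adjusted p = 0.0012), and *Serpina11* fell by 1.62 (SE 0.14, adjusted p = 0.00024). *Serpina7*, the thyroxine-binding globulin gene of the X chromosome, fell by 3.96 (SE 0.77, adjusted p = 0.0044). *Agt*, the angiotensinogen gene, fell by 1.08 (SE 0.17, adjusted p = 0.0016), and *Serpina9* was at −3.55 (SE 0.73, adjusted p = 0.0057) from 1.62 CPM in WT.

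The pseudogene *Serpina3h* rose by 4.83 (SE 0.79, adjusted p = 0.0021), with 3.12, 1.23 and 0.496 TPM in WT and 7.15, 25.3 and 11.2 TPM in LKO. The other calls, *Serpina3c* (1.65, adjusted p = 0.0092) and *Serpina5* (−2.19, adjusted p = 0.0074), had means under 1 CPM and are named after their values were seen. *Serpina10*, an inhibitor of factor Xa, was at −0.40 (adjusted p = 0.33), and leaving out 1 mouse gave −0.19 (adjusted p = 0.66, without LKO mouse 1) to −0.88 (adjusted p = 0.0085, without LKO mouse 2). It passed on total counts (−1.32, adjusted p = 0.0022) and on log2(TPM + 1) (−2.02, adjusted p = 0.00025). *Serpina3f* (0.77, adjusted p = 0.36), *Serpina3g* (−0.06, adjusted p = 0.87) and *Serpina3i* (2.21, adjusted p = 0.065) did not pass, and the sign of each turned under another setting. *Serpina3g* passed on total counts (−0.97, adjusted p = 0.016) and on log2(TPM + 1) (−1.42, adjusted p = 0.0028). *Serpina3i* passed under several settings, among them edgeR's exactTest (2.20, adjusted p = 0.022), but not on total counts (1.37, adjusted p = 0.18) or log2(TPM + 1) (0.07, adjusted p = 0.89). *Serpina3i* had 34, 75 and 437 counts in the LKO mice, and was at 2.70 (adjusted p = 0.016) without LKO mouse 1 but at 0.69 (adjusted p = 0.39) without LKO mouse 3.

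**Figure D5:**
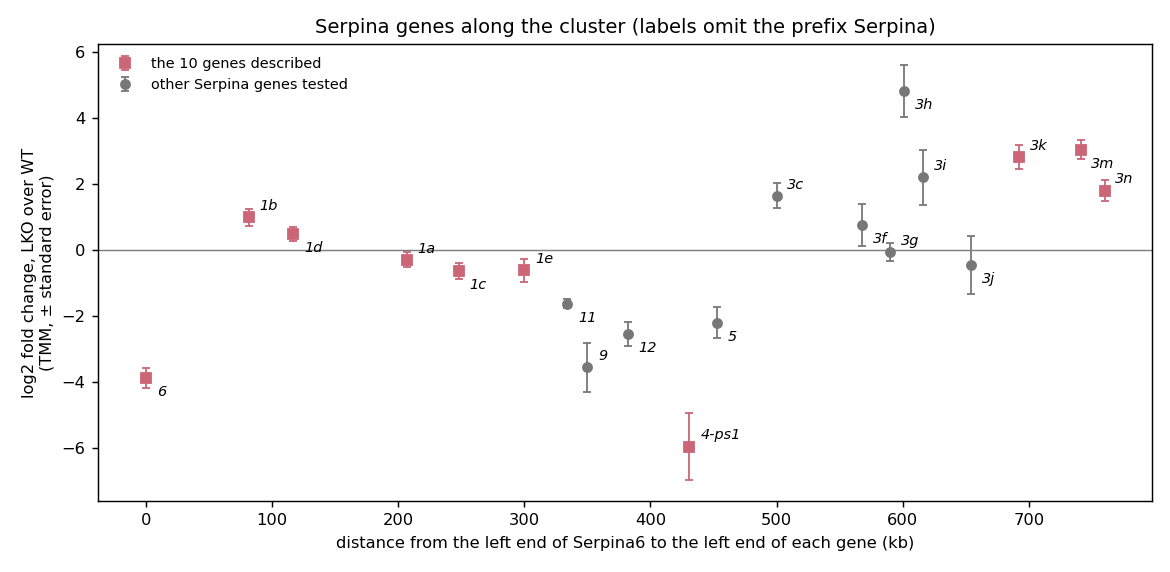
Log2 fold change on TMM-scaled counts (LKO over WT, ± SE, 3 mice each) of the 20 tested *Serpina* genes of the cluster against distance from *Serpina6* (kb), with squares for the 10 genes described and circles for the others. *Serpina11* to *Serpina5* lie below 0, and *Serpina3k*, *Serpina3m* and *Serpina3n* above 0 at the far end; *Serpina1b* and *Serpina1d* lie below 0 on log2(TPM + 1).

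Serpins of other clades went both ways on TMM-scaled counts, where 16 of 39 such genes were tested, 4 rose and 6 fell, with a median of −0.36. On total counts 3 rose and 9 fell, and on log2(TPM + 1) none rose and 10 fell. Among those of highest level, *Serpinc1* (antithrombin) fell by 0.72 (SE 0.17, adjusted p = 0.011) and *Serpinf1* (pigment epithelium-derived factor) fell by 1.18 (SE 0.14, adjusted p = 0.00053). *Serping1* (C1 inhibitor) was at −0.51 (adjusted p = 0.091) and *Serpind1* (heparin cofactor II) at −0.21 (adjusted p = 0.38). Both passed on total counts, at −1.40 (adjusted p = 0.00079) and −1.07 (adjusted p = 0.0017), and on log2(TPM + 1), at −2.04 and −1.76. *Serpine2* fell by 2.66 (SE 0.41, adjusted p = 0.0016). The 4 that rose, named after their values were seen, were the intracellular *Serpinb6a*, *Serpinb6b*, *Serpinb9* and *Serpinb1a*, of which *Serpinb6a* and *Serpinb1a* were at −0.01 and −0.28 on log2(TPM + 1).

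Proteases that serpins act on were tested for 12 of 17 genes, of which 1 rose and 4 fell on TMM-scaled counts. On total counts 1 rose and 9 fell, and on log2(TPM + 1) none rose and 10 fell. Of all 18636 genes tested, 9575 and 13322 fell on these 2 scales. Coagulation factor *F9* rose by 1.84 (SE 0.21, adjusted p = 0.00049; 0.26 with adjusted p = 0.23 on log2(TPM + 1)), and prothrombin (*F2*) fell by 0.78 (SE 0.18, adjusted p = 0.010). *F10* fell by 0.77 (SE 0.15, adjusted p = 0.0049) and *Plau*, the urokinase gene, fell by 1.11 (SE 0.35, adjusted p = 0.033), a call that was lost when any mouse but LKO mouse 2 was left out (adjusted p = 0.062 to 0.081). Without WT mouse 3 the calls of this list numbered 3. The remaining call was *Tmprss6* (−0.80, adjusted p = 0.011), named after its value was seen. *Proc*, the protein C gene, was at −0.24 (adjusted p = 0.38; −1.10 with adjusted p = 0.0025 on total counts), and plasminogen (*Plg*) was at 0.19 (adjusted p = 0.51) on TMM-scaled counts but at −0.66 on total counts and −1.37 on log2(TPM + 1).

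Of 26 regulators of liver and acute-phase transcription, 4 rose and 6 fell on TMM-scaled counts, with a median of −0.16. On total counts 2 rose and 17 fell, and on log2(TPM + 1) 1 rose and 19 fell. *Cebpd*, an acute-phase transcription factor, rose by 3.58 (SE 0.29, adjusted p = 0.00022), from 2.78, 2.86 and 2.28 TPM in WT mice to 7.07, 11.5 and 13.3 TPM in LKO. *Hsd11b1*, which regenerates active glucocorticoid, rose by 1.66 (SE 0.21, adjusted p = 0.00073) on TMM-scaled counts, while its TPM overlapped between the groups (0.11, adjusted p = 0.57, on log2(TPM + 1)). *Ghr*, the growth hormone receptor, fell by 1.26 (SE 0.32, adjusted p = 0.014), and the transcription factor *Onecut1* fell by 2.87 (SE 0.58, adjusted p = 0.0054). *Hnf4a* was at −0.30 (adjusted p = 0.42) and *Il6st*, the shared receptor subunit of the IL-6 family, at −0.35 (adjusted p = 0.096). Without LKO mouse 3 they were at −0.66 (adjusted p = 0.042) and −0.46 (adjusted p = 0.038), and without LKO mouse 1 at −0.08 (adjusted p = 0.83) and −0.30 (adjusted p = 0.22). On total counts they were at −1.16 (adjusted p = 0.0072) and −1.22 (adjusted p = 0.00084). The others that rose, named after their values were seen, were *Cebpb* (1.46, adjusted p = 0.022) and *Cebpa* (0.60, adjusted p = 0.045), the latter at −0.23 on total counts and −0.92 on log2(TPM + 1).

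Genes that fold, export or degrade secreted glycoproteins were mostly lower where called, with 3 of 27 rising, 14 falling and a median of −0.56 on TMM-scaled counts. On total counts none rose and 22 fell, and on log2(TPM + 1) none rose and 26 fell. Of all 18636 genes tested, 9575 and 13322 fell on these 2 scales. The chaperone *Calr* fell by 1.48 (SE 0.21, adjusted p = 0.0010), the ubiquitin ligase *Syvn1* by 1.88 (SE 0.21, adjusted p = 0.00045) and the mannosidase *Man1b1* by 1.75 (SE 0.16, adjusted p = 0.00027). *Hspa5* was at −0.56 (adjusted p = 0.16; −1.45 with adjusted p = 0.0018 on total counts). *Hsp90b1* was at 0.66 (adjusted p = 0.057; 0.79 and 0.043 without LKO mouse 1, 0.47 and 0.15 without LKO mouse 2) on TMM-scaled counts but −0.23 on total counts, and *Sar1b* was at 1.29 (adjusted p = 0.0030) but −0.28 on log2(TPM + 1). The others that rose, *Erlec1* (0.58, adjusted p = 0.021) and *Sec23a* (0.58, adjusted p = 0.026), are named after their values were seen and were at −0.72 and −0.96 on log2(TPM + 1).

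Markers of other liver cells also moved with the genotype. Of 40 such markers 36 were tested, 17 rose and 4 fell on TMM-scaled counts, 8 rose and 10 fell on total counts, and 3 rose and 20 fell on log2(TPM + 1). Their median on the first scale was 0.74 (−0.13 on total counts and −0.43 on log2(TPM + 1)), and none was at 0 in all mice. Their summed level was 869 to 1129 CPM in WT and 1614 to 2372 CPM in LKO livers, but 618 to 913 TPM and 523 to 702 TPM. The summed cholangiocyte markers went the other way in CPM, with 32.9 to 50.3 CPM in WT and 13.7 to 30.3 CPM in LKO (41.0 to 67.4 and 6.93 to 10.9 TPM). *Spp1* alone had means of 39.6 CPM in WT and 18.7 CPM in LKO. Of these 6 markers 4 were tested, and 1 fell and 3 were not called on TMM-scaled counts, with a median of 0.08 (3 fell on log2(TPM + 1), median −0.36). The leukocyte markers overlapped on both scales. For comparison, the hepatocyte markers summed to 36184 to 40701 CPM in WT and 107326 to 117581 CPM in LKO. In TPM they summed to 37297 to 40891 and 30739 to 42879, with overlap. *Cd163* of macrophages rose by 4.50 (SE 0.34, adjusted p = 0.00021), *Dcn* of stellate cells by 2.12 (SE 0.22, adjusted p = 0.00037) and *S100a8* of neutrophils by 2.49 (SE 0.56, adjusted p = 0.0089; 1.01 with adjusted p = 0.13 on log2(TPM + 1)). *Clec4g* (1.53, adjusted p = 0.00037) and *Clec4f* (1.19, adjusted p = 0.0069) turned to −0.01 and −0.36 on log2(TPM + 1), and *Cd5l* was at 0.86 (adjusted p = 0.063; 1.09 and 0.024 without LKO mouse 1, 0.41 and 0.20 without LKO mouse 2) but −0.07 on total counts. The 4 that fell, named after their values were seen, were *Cd68*, *Col3a1*, *Spp1* and *Nkg7*. The part of these cells in the *Serpina* values was not tested.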

How the data were processed

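Liver RNA of 3 WT and 3 LKO mice was sequenced, 1 library per mouse, with groups taken from the labelled genotype. The authors aligned paired reads to mm10 and assembled them with StringTie; their processing notes name HISAT2 2.1.0, Bowtie2 2.3.4.1 and StringTie 2.1.3b. The methods name a total RNA kit with rRNA removal and the labels an mRNA kit, and which was used is not settled here. The authors deposited read counts per gene, not normalized, together with FPKM (scaled per gene length and depth; not tested here) and TPM. The TPM were computed by the authors and sum alike in every mouse. Multiply matching reads can be split among near-identical copies.

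Genes with more than 1 zero count were left out. TMM scaling was applied to the deposited counts, and genotypes were compared by edgeR 4.0.16 (R 4.3.3, glmQLFit and glmQLFTest, two-sided), with Benjamini-Hochberg adjustment over 18636 genes and a threshold of 0.05. DESeq2 1.42.0, edgeR's exactTest, other scalings and filters, and limma 3.58.1 on log2(TPM + 1) were alternatives, and the fits were tested on simulated data. The p-values set the difference between genotypes against the spread between these mice, as each fit estimates it. The members and lists were chosen with earlier results of these data known. Named were all 10 members, *Pak4*, *Agt*, each other *Serpina* gene tested with at least 1 CPM in a genotype, and from each other list the 4 genes of highest mean WT TPM and the 2 called genes of largest change at 1 CPM or more. 1 gene that this rule names is not reported here. Gene positions are those of RefSeq on GRCm38.p6. Precision is given as SD over 3 mice or SE of the fit.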

Additional observations from a re-analysis of the deposited data

How the results depend on the processing

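The results were recomputed under 19 other settings. *Serpina3k*, *Serpina3m*, *Serpina4-ps1* and *Serpina6* kept their direction and call under each setting that gave them a value. *Serpina4-ps1* has none among protein-coding genes. These genes were chosen from their difference between the same mice, so this is a description. Of the values of single genes, 849 kept direction and call, 67 came to pass the threshold, 20 no longer passed and 29 turned sign. Scale was the main limit. The median of the 10 genes (0.10) was −0.78 on total counts, −1.45 on log2(TPM + 1) or log2(TPM + 0.1) and 0.55 among protein-coding genes, which leave out *Serpina4-ps1*, and lay between −0.05 and 0.20 when 1 mouse was left out. The *Serpina1* sum (0.05) was −0.83 on total counts, −1.49 on both TPM scales, −0.05 with the gene length correction and −0.08 to 0.14 when 1 mouse was left out, turning sign without WT mouse 1 or LKO mouse 2.

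*Serpina1b* was −0.57 on both TPM scales; *Serpina1d* was −0.39 on total counts and −1.06 on both TPM scales. On total counts *Serpina3f* was −0.09, *Plg* −0.66, *Hsp90b1* −0.23 and *Cd5l* −0.07. On log2(TPM + 1) *Serpina3f* was −0.86, *Plg* −1.37, *Hsp90b1* −0.89, *Sar1b* −0.28, *Cd5l* −0.75, *Clec4f* −0.36 and *Clec4g* −0.01. On log2(TPM + 0.1) *Serpina3f* was −1.14, *Serpina3i* −0.03, *Plg* −1.37, *Hsp90b1* −0.89, *Sar1b* −0.28, *Cd5l* −0.76, *Clec4f* −0.37 and *Clec4g* −0.01. *Serpina3g* was 0.01 with upper-quartile scaling, and leaving out 1 mouse it ranged from −0.27 to 0.23 (0.23 without WT mouse 2, 0.07 without LKO mouse 1). Leaving out 1 mouse, *Serpina3f* ranged from −0.39 to 1.21 and *Plg* from −0.01 to 0.29, the lowest both without LKO mouse 3. The cause was not tested.

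Calls over all genes numbered 13775 on log2(TPM + 1) and 14002 on log2(TPM + 0.1), against 7476, and on total counts 1167 genes rose and 9575 fell, against 3661 and 3815. Called target proteases numbered 10 on total counts and on both TPM scales and 3 without WT mouse 3, against 5. Called regulators numbered 19 on total counts and 20 on both TPM scales, against 10. Called genes of secretory handling numbered 26 on both TPM scales, against 17.

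The replicate numbers did not pair the mice (r between same-numbered deviations −0.0051, −0.039 and −0.049). With the replicate number as a block, 6431 genes were called and 5 of the 10 members, *Serpina1b* (0.98) no longer among them; with the block and the gene length correction the *Serpina1* sum was −0.05.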
